A study of Mus musculus with 6 samples.

Results

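The transforming growth factor-beta (TGF-beta), bone morphogenetic protein (BMP) and activin signalling genes examined here comprise 38 genes, found by gene symbol among the 54532 genes of the deposited expression table. They are 12 ligands, 11 receptors, 8 SMAD genes, 4 secreted proteins that bind ligands or were named after such a protein, and 3 transcriptional corepressors. Expression was measured by bulk RNA sequencing in the hearts of 3 wild-type (WT) and 3 *Crlf2*-/- mice, labelled TSLPR KO, all of C57BL/6 background. *Crlf2* encodes the receptor chain for thymic stromal lymphopoietin (TSLP), and the comparison asks how gene expression in the infarcted heart differs when this receptor is deficient. Every mouse of both groups underwent ligation of the left anterior descending coronary artery, and the tissue was taken on day 7 after myocardial infarction (MI). No sham-operated heart was analysed here, so the values describe the genotype difference within infarcted hearts and not the response to MI. The peri-infarcted and infarcted tissue was sequenced as a mixture of cells. The study's methods describe bought male WT mice and a *Crlf2*-/- line made separately, on the C57BL/6J background, and whether littermates were compared and which exons were deleted is not given there. The labels give neither the sex nor the age of the sequenced mice, and nothing in them says that the libraries of a group came from different animals.

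Ligands of this superfamily bind pairs of type II and type I serine/threonine kinase receptors. TGF-beta and activin receptors phosphorylate SMAD2 and SMAD3, BMP receptors phosphorylate SMAD1, SMAD5 and SMAD9, and both kinds of SMAD join the common partner SMAD4 to regulate transcription. In the healing heart, TGF-beta and activin are known for driving fibroblasts towards matrix-producing myofibroblasts, and BMP signalling is known for its part in endothelial and cardiac development. TGF-beta is secreted in a latent complex with LTBP proteins, activins are neutralised by follistatin, and BMPs by antagonists such as gremlin.

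Levels are given as FPKM, that is fragments per kilobase of gene length, relative to the mapped fragments of the library, after scaling between libraries. The libraries held 18508646 to 19682428 fragments on the genes listed. *Crlf2* itself was measured at 26.8, 24.9 and 21.6 FPKM in the WT hearts and at 13.2, 18.6 and 19.9 FPKM in the *Crlf2*-/- hearts (log2 fold change -0.52, adjusted p = 0.521 from limma). Transcripts assigned to the targeted gene were therefore present in all 3 *Crlf2*-/- libraries, and the labels were followed. The 10 cardiomyocyte markers summed to between 1058 and 1971 FPKM in WT and between 695 and 1373 FPKM in *Crlf2*-/- hearts, while 10 retinal markers, checked because the labelled extraction protocol speaks of another tissue, summed to at most 0.243 FPKM in any library. The WT hearts spread to both sides for the genes described here. Of the 36 members tested, WT replicate 1 held the lowest WT level of 25 and WT replicate 3 the highest WT level of 21.

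None of the 36 members tested differed between *Crlf2*-/- and WT hearts by the rule that asks for an adjusted p of 0.05 or less and a log2 fold change of 0.5 or more in either direction. The p-values came from limma fitted to log2(FPKM + 0.1) and were adjusted by Benjamini and Hochberg over the 15520 genes tested. By that rule 2 genes, 0.0129% of all genes tested, were called. The study reports many more genes from DESeq2 at the same thresholds. Not being called here therefore does not show that a member is unchanged. At an unadjusted limma p under 0.05 there were 4 members, 11.1% of those tested, where 6.58% of all genes tested reached that level. These were the ligand genes *Tgfb2*, *Inhba* and *Inhbb*, with higher means in *Crlf2*-/- hearts, and *Bmp4*, with a lower mean, where 3.22% of all genes tested reached that level in the higher and 3.36% in the lower direction. The same 4 genes were also the only ligands whose groups did not overlap, where 11.7% of all genes tested did not overlap. All 4 are ligands, and 0 of the 11 receptors, 0 of the 8 SMAD genes, 0 of the 4 binding proteins and 0 of the 3 corepressors reached an unadjusted p under 0.05. The smallest adjusted p among the members was 0.456, for *Tgfb2*.

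The 250 bases upstream of the annotated RefSeq start of these 4 genes (GRCm38.p6) are shown because they are the genes with the smallest p-values among the members. They lie at chr1:186705990-186706239 on the minus strand for *Tgfb2*, at chr13:16011601-16011850 on the plus strand for *Inhba*, at chr1:119422249-119422498 on the minus strand for *Inhbb* and at chr14:46390670-46390919 on the minus strand for *Bmp4*. Each is written 5′ to 3′ along the gene's own strand, and capitals mark matches to the letters searched.
Tgfb2: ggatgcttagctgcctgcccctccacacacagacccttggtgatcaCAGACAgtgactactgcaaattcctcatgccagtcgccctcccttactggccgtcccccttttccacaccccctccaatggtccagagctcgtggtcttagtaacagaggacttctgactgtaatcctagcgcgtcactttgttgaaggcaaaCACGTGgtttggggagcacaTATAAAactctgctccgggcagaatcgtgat
Inhba: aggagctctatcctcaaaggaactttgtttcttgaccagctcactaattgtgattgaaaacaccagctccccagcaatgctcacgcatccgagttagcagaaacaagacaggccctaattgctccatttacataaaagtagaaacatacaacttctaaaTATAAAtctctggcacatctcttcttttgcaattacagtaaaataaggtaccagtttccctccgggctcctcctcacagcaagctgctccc
Inhbb: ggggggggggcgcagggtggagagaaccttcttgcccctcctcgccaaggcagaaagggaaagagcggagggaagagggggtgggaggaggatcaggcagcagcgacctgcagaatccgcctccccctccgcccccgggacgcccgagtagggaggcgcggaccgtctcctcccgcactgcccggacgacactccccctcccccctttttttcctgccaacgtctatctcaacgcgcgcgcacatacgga
Bmp4: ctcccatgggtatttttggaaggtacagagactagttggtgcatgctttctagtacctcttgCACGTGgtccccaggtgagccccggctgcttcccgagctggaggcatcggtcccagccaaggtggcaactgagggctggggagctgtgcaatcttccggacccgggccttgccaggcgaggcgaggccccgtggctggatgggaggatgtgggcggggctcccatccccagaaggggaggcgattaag
The letters searched, on both strands, were CAGACA, the CAGA form of the SMAD-binding element, GTCTAGAC, the palindrome bound by SMAD3 and SMAD4, GGCGCC, a GC-rich SMAD site, TGACGTCA, the cyclic AMP response element, TGACTCA, the AP-1 site, CACGTG, an E-box, and TATAAA, the TATA box. The *Tgfb2* window held CAGACA 204 bases, CACGTG 51 bases and TATAAA 31 bases before the start. The *Inhba* window held TATAAA 91 bases before the start and the *Bmp4* window held CACGTG 188 bases before it. The *Inhbb* window held none of these letters. Among all 32851 windows of the same length, 17.1% held CAGACA, 9.59% held GGCGCC, 0.167% held GTCTAGAC, 1.55% held TGACGTCA, 4.46% held TGACTCA, 6.02% held CACGTG and 12.4% held TATAAA. Windows were available for 27 of the 38 members, of which 4 held CAGACA (*Tgfb2*, *Tgfbr1*, *Fstl3* and *Tgif1*) and 7 held GGCGCC (*Tgfbr1*, *Bmpr1a*, *Bmpr2*, *Smad5*, *Smad9*, *Ski* and *Grem1*). CACGTG was in the windows of 4 members, *Tgfb2*, *Bmp4*, *Acvr1b* and *Bmp6*, and TATAAA in those of 3, *Tgfb2*, *Inhba* and *Fstl3*. Of these, *Acvr1b*, *Bmp6* and *Fstl3* are not among the genes shown. Since the *Inhbb* window held no match, none could be common to all 4 genes shown.

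The members spanned a wide range of levels in WT hearts. *Fstl1*, a secreted glycoprotein of stromal cells, was the highest at 752 ± 57.2 FPKM (SD, n = 3), above 99.8% of all genes tested. *Tgfb3* followed at 112 ± 8.94 FPKM (SD, n = 3), then the endothelial co-receptor gene *Eng* at 63.2 ± 7.55 FPKM (SD, n = 3) and the corepressor gene *Ski* at 47.3 ± 1.6 FPKM (SD, n = 3). Of the 38 members, 17 had a WT mean above 10 FPKM and 6 had one below 1 FPKM. The low ones were *Gdf10*, *Smad9*, *Acvr2b*, *Grem1*, *Bmp7* and *Bmp10*. *Bmp7* and *Bmp10* did not pass the filter on low values and were not tested. *Bmp10*, an atrial ligand, was at 0 fragments in 4 libraries and at 2 fragments in WT replicate 3 and in *Crlf2*-/- replicate 3, which is too few to compare. For *Bmp7*, the WT libraries gave 5, 7 and 17 fragments and those of *Crlf2*-/- hearts 5, 2 and 6.

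**Figure D1:**
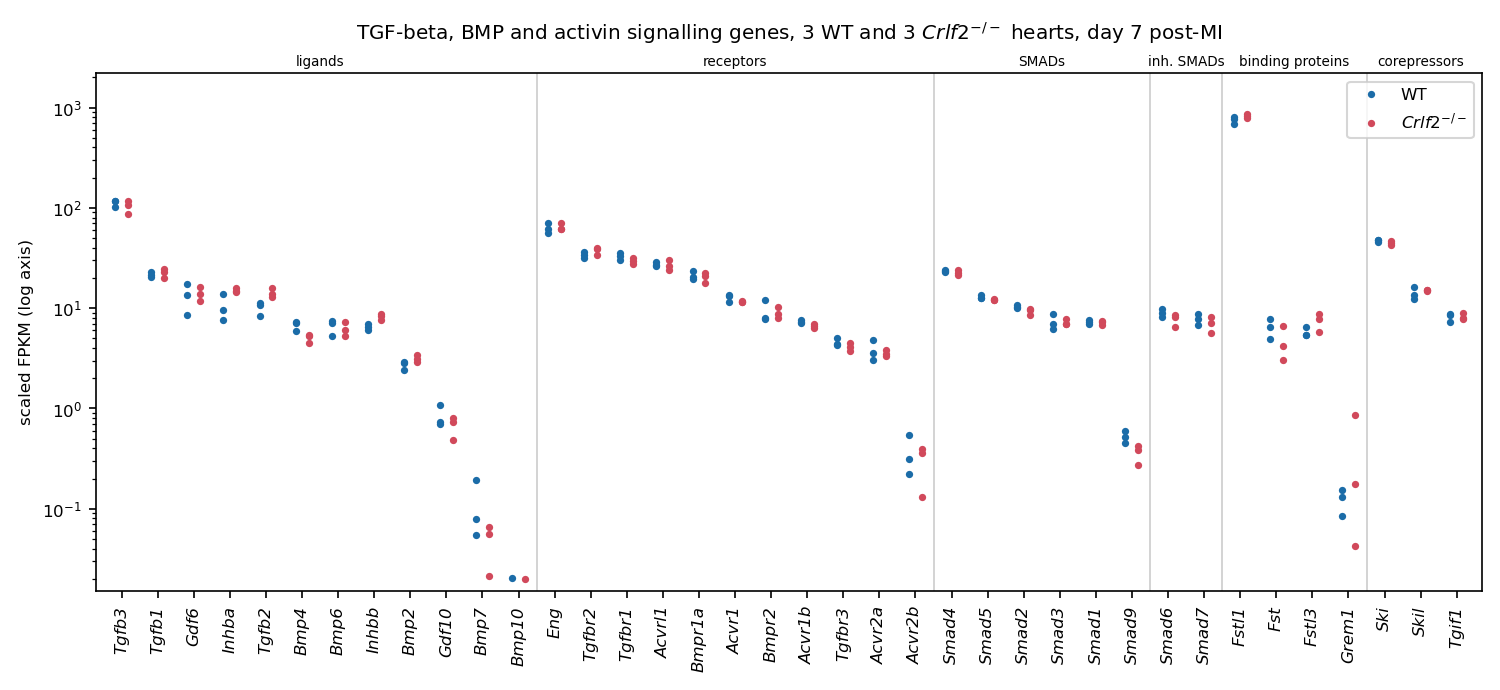
Level of each of the 38 genes in each library, in scaled FPKM on a log axis, grouped by role and ordered by WT mean within a role. Blue points are the 3 WT and red points the 3 *Crlf2*-/- hearts, and libraries at 0 (4 for *Bmp10*) are not drawn. Levels run from *Fstl1* at 752 FPKM in WT down to *Bmp10*, and the 2 colours overlap for most genes.

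Among the TGF-beta ligands, *Tgfb2* was the least abundant and had the largest difference. It was measured at 8.27, 10.7 and 11.3 FPKM in the WT hearts and at 15.8, 12.8 and 13.8 FPKM in the *Crlf2*-/- hearts. Every *Crlf2*-/- heart lay above every WT heart. The log2 fold change was 0.49 (standard error 0.14, unadjusted p = 0.00901, adjusted p = 0.456 from limma), with a 95% interval from 0.16 to 0.82. Omitting WT replicate 1 gave 0.36 and omitting WT replicate 3 gave 0.58. Because the pseudocount and the linear model act on a log scale, this is a difference in log level, from a mean of 10.1 ± 1.61 FPKM (SD, n = 3) to 14.1 ± 1.53 FPKM (SD, n = 3).

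*Tgfb1*, the form made by platelets and many leukocytes, showed overlapping groups. It was measured at 22.8, 21.3 and 20.6 FPKM in WT and at 20.1, 24.4 and 22.8 FPKM in *Crlf2*-/- hearts. The log2 fold change was 0.05 with a 95% interval from -0.19 to 0.30. *Tgfb3* was measured at 102, 118 and 117 FPKM in WT and at 87.8, 108 and 116 FPKM in *Crlf2*-/- hearts, with *Crlf2*-/- replicate 1 the lowest of all 6. Its log2 fold change of -0.12 became 6.3e-05 without that library. The antisense genes that overlap 12.4% of the exonic length of *Tgfb3* cannot be told apart from it if the counting did not use strand, which is not stated. In every library *Tgfb3* was the most abundant of the TGF-beta ligand genes, at 4.47, 5.53 and 5.67 times *Tgfb1* in WT and 4.36, 4.4 and 5.12 times *Tgfb1* in *Crlf2*-/- hearts. The sum of *Tgfb1*, *Tgfb2* and *Tgfb3* was 144 ± 9.47 FPKM (SD, n = 3) for WT against 141 ± 15.1 FPKM (SD, n = 3) in *Crlf2*-/- hearts, with overlapping groups. *Tgfb3*, with a WT mean of 112 FPKM, made up most of this sum, so the sum could not show a difference of the size seen for *Tgfb2*.

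The genes of the activin beta chains were both higher in mean in *Crlf2*-/- hearts. *Inhba*, which encodes the chain of activin A, was measured at 7.64, 9.69 and 13.7 FPKM in WT and at 16.1, 14.8 and 14.4 FPKM in *Crlf2*-/- hearts. The *Crlf2*-/- hearts all lay above the WT hearts, but WT replicate 3 came within 1 FPKM of the lowest of them. The log2 fold change was 0.58 (standard error 0.19, unadjusted p = 0.0173, adjusted p = 0.557 from limma), and it was 0.38 without WT replicate 1 and 0.80 without WT replicate 3. *Inhba* also differed in spread, with a coefficient of variation of 29.9% in WT and 5.79% in *Crlf2*-/- hearts, a difference in spread that was not tested. *Inhbb*, the chain of activin B, was measured at 6.89, 6.12 and 6.45 FPKM in WT and at 7.64, 8.36 and 8.67 FPKM in *Crlf2*-/- hearts. Its groups did not overlap, and its log2 fold change of 0.34 (standard error 0.10, unadjusted p = 0.0116, adjusted p = 0.498 from limma) lay from 0.30 to 0.39 when any library was omitted. Of the 4 genes its fold moved least when 1 library was omitted, although its unadjusted p was not under 0.05 without WT replicate 2. *Tgfb2* was the only one of the 4 at an unadjusted p under 0.05 with any 1 library omitted.

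*Fst* encodes follistatin, which binds activins, and *Fstl3* encodes a related activin-binding protein. *Fst* was measured at 4.9, 6.45 and 7.71 FPKM in WT and at 3.01, 6.63 and 4.24 FPKM in *Crlf2*-/- hearts. The groups overlapped through *Crlf2*-/- replicate 2, and the log2 fold change was -0.50 with a 95% interval from -1.15 to 0.15 (adjusted p = 0.859 from limma). It was -0.23 without *Crlf2*-/- replicate 1 and -0.79 without *Crlf2*-/- replicate 2. *Fstl3* was measured at 5.35, 6.49 and 5.38 FPKM in WT and at 5.8, 7.74 and 8.68 FPKM in *Crlf2*-/- hearts. Its log2 fold change was 0.35 (adjusted p = 0.807 from limma) and it was 0.51 without *Crlf2*-/- replicate 1 and 0.23 without *Crlf2*-/- replicate 3. For *Fstl3*, 47.3% of the exonic length is shared with *Prss57* on the opposite strand. The ratio of *Inhba* to *Fst*, chosen after the values were seen, was 1.56, 1.5 and 1.78 in WT and 5.33, 2.23 and 3.4 in *Crlf2*-/- hearts. It is a description, with no test, since *Inhba* had the higher and *Fst* the lower mean in *Crlf2*-/- hearts. With *Inhbb* and *Fstl3* added to the respective sides, the ratio was 1.42, 1.22 and 1.54 in WT and 2.69, 1.61 and 1.79 in *Crlf2*-/- hearts.

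Among the BMP and growth differentiation factor ligands, *Bmp4* was lower in mean in *Crlf2*-/- hearts. It was measured at 7.22, 5.86 and 7.09 FPKM in WT and at 4.45, 5.39 and 5.3 FPKM in *Crlf2*-/- hearts. All *Crlf2*-/- hearts lay below all WT hearts, with WT replicate 2 the nearest. The log2 fold change was -0.40 (standard error 0.13, unadjusted p = 0.0142, adjusted p = 0.525 from limma), and it was -0.50 when WT replicate 2 and -0.32 when *Crlf2*-/- replicate 1 was omitted. *Bmp2* had WT values from 2.39 to 2.9 FPKM and *Crlf2*-/- values from 2.89 to 3.42 FPKM, which overlapped. *Bmp6*, a ligand of endothelial cells that also regulates iron, had values from 5.28 to 7.42 FPKM in WT and from 5.25 to 7.25 FPKM in *Crlf2*-/- hearts. The sum of the BMP ligand genes was 16.2 ± 0.968 FPKM (SD, n = 3) for WT against 14.4 ± 1.39 FPKM (SD, n = 3) in *Crlf2*-/- hearts, with overlapping groups. *Gdf6* varied most among the well-measured ligands, from 8.57 to 17.3 FPKM in WT, and its *Crlf2*-/- values of 11.8 to 16.3 FPKM lay inside that range. *Gdf10* was low, at 0.843 ± 0.213 FPKM (SD, n = 3) for WT against 0.676 ± 0.169 FPKM (SD, n = 3) in *Crlf2*-/- hearts.

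**Figure D2:**
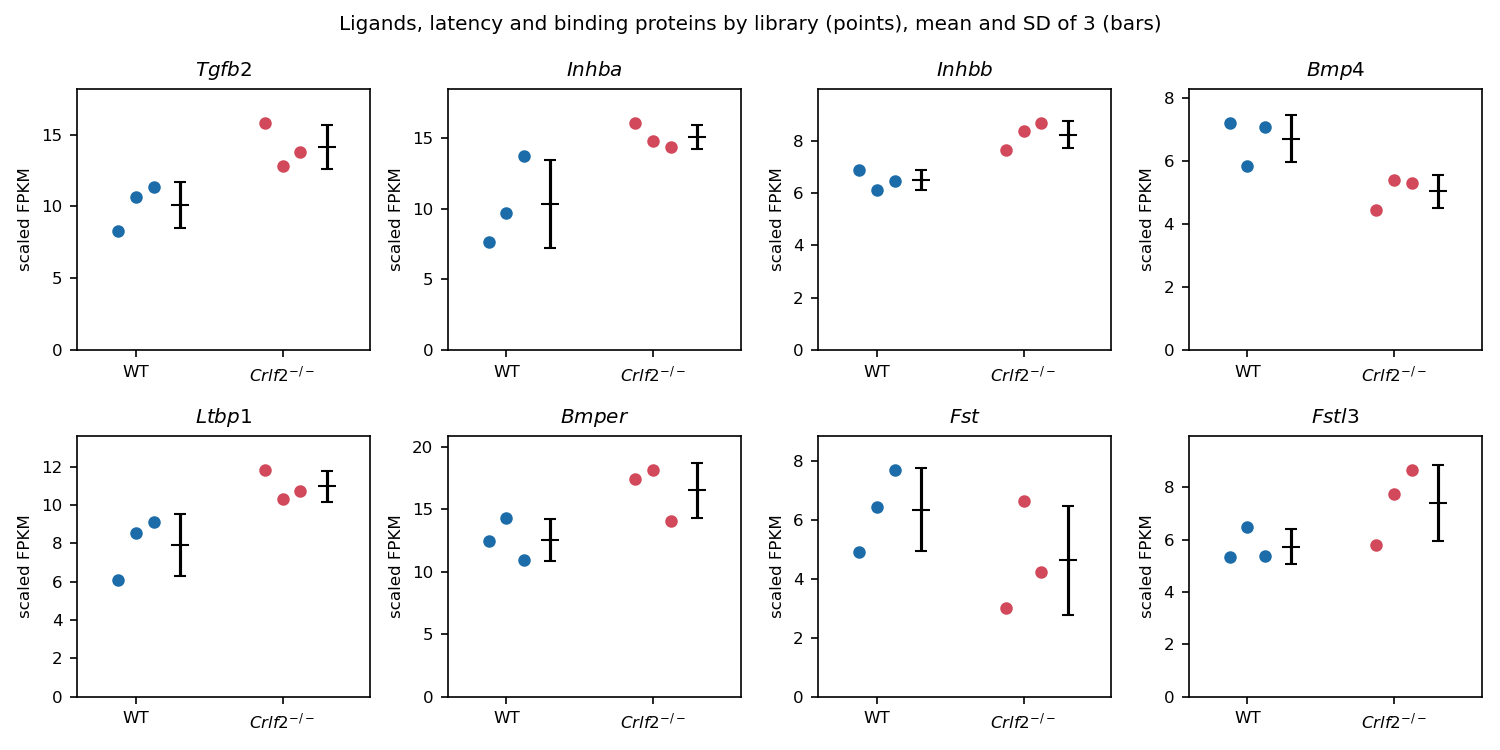
Scaled FPKM (linear axis from 0) of the ligand genes *Tgfb2*, *Inhba*, *Inhbb* and *Bmp4* and of *Ltbp1*, *Bmper*, *Fst* and *Fstl3* in each library, with points for the 3 WT (blue) and 3 *Crlf2*-/- (red) hearts and bars for mean and SD. In the top row and for *Ltbp1* the groups do not overlap, while *Bmper*, *Fst* and *Fstl3* overlap.

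Markers of several cell types, though not of all those examined, differed in mean between the groups beside these ligands. Of 10 endothelial markers, 8 had a lower mean log level in *Crlf2*-/- hearts, and their summed level ran from 195 to 214 FPKM in WT and from 176 to 185 FPKM in *Crlf2*-/- hearts, without overlap. All 10 cardiomyocyte markers were lower, with a median log2 fold change of -0.84. The 7 epicardial markers were all higher, with a median of 0.39 and overlapping sums of 20.8 to 34.8 FPKM in WT and 29.7 to 52.1 FPKM in *Crlf2*-/- hearts. Of the 10 fibroblast markers, 6 had a lower and 4 a higher mean log level, with a median of -0.13. Their sums lay between 7176 and 8366 FPKM in WT and between 8154 and 8298 FPKM in *Crlf2*-/- hearts, which overlapped. All 12 T cell markers were lower too, with a median of -1.12 and sums of 23.4 to 33.8 FPKM in WT and 12.7 to 15.5 FPKM in *Crlf2*-/- hearts. The 5 red blood cell markers tested were all lower, with a median of -1.29 and summed levels of 226 to 367 FPKM in WT and 85.4 to 161 FPKM in *Crlf2*-/- hearts. Of the macrophage markers, 8 of 10 were higher, with a median of 0.10 and overlapping sums of 2477 to 4450 FPKM in WT and 2981 to 3613 FPKM in *Crlf2*-/- hearts. The 4 adipose markers tested were all lower, with a median of -1.76 and overlapping sums. Of the 10 mural markers, 4 were higher and 6 lower, with a median of -0.02. Of the 6 neutrophil markers tested, 3 were higher and 3 lower, with a median of 0.01. Of the 5 atrial markers tested, 3 were higher and 2 lower, with a median of 0.11. The sums of these lists overlapped between the groups. None of these markers passed the adjusted threshold in the limma fit used here. The study, which used DESeq2 with the same thresholds, reports the T cell genes *Lck*, *Cd6* and *Cd3e* as downregulated in *Crlf2*-/- hearts. In a bulk sample fewer cells of a type and less RNA per cell cannot be told apart, and the part of these markers in the ligand differences was not tested.

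No receptor gene reached an unadjusted p under 0.05. Of the 11 receptor genes, 9 had a lower and 2 a higher mean log level in *Crlf2*-/- hearts, with a median log2 fold change of -0.09. The mean log level was higher for 49.08% of all genes tested. *Tgfbr1*, the type I receptor of TGF-beta, was measured at 33.5, 30 and 35.4 FPKM in WT and at 31.5, 27.6 and 29.3 FPKM in *Crlf2*-/- hearts. *Tgfbr2*, the type II receptor, was measured at 31.9, 34.1 and 36 FPKM in WT and at 38.5, 39.6 and 34.3 FPKM in *Crlf2*-/- hearts. Each overlapped between the groups, with adjusted p-values of 0.924 and 0.94 from limma. The ratio of *Tgfbr2* to *Tgfbr1*, chosen after the values were seen, was 0.952, 1.14 and 1.02 in WT and 1.22, 1.44 and 1.17 in *Crlf2*-/- hearts, a description with no test.

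*Acvr1b*, a type I receptor of activin, was the only receptor gene whose groups did not overlap, at 7.11, 7.61 and 7.24 FPKM in WT and 6.89, 6.41 and 6.71 FPKM in *Crlf2*-/- hearts. The difference was small, with a log2 fold change of -0.13 and a 95% interval from -0.35 to 0.09. Of the activin type II receptor genes, *Acvr2a* had the higher WT mean of 3.82 ± 0.906 FPKM (SD, n = 3), and *Acvr2b* was near the filter's limit at 0.361 ± 0.167 FPKM (SD, n = 3), on 20, 27 and 47 fragments. *Acvr1*, the type I receptor gene shared by BMPs and activins, had values from 11.6 to 13.6 FPKM in WT and from 11.5 to 11.8 FPKM in *Crlf2*-/- hearts. The endothelial receptor genes overlapped between the groups. *Eng* had a log2 fold change of 0.03 with a 95% interval from -0.26 to 0.33, and *Acvrl1*, its partner, one of -0.04 with an interval from -0.30 to 0.22. *Bmpr1a* and *Bmpr2*, the general BMP receptors, had log2 fold changes of -0.06 and -0.02. *Bmpr2* was highest of all 6 in WT replicate 3, at 12 FPKM, where the other libraries lay between 7.82 and 10.4 FPKM. *Tgfbr3*, the co-receptor betaglycan, which presents TGF-beta2 to its receptors, had a log2 fold change of -0.15 with an interval from -0.43 to 0.13.

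Of the receptor-activated and common SMAD genes, 5 of 6 had a lower mean log level in *Crlf2*-/- hearts, and none had an unadjusted p under 0.05. Over all genes tested, 49.08% had a higher mean log level. The groups did not overlap for *Smad2*, *Smad5* and *Smad9*, all 3 lower, where 6.37% of all genes tested were lower without overlap. *Smad2*, which transmits TGF-beta and activin signals, was measured at 10.3, 10.9 and 10 FPKM in WT and at 9.75, 8.53 and 9.64 FPKM in *Crlf2*-/- hearts (log2 fold change -0.16, 95% interval -0.39 to 0.07). *Smad5*, of the BMP branch, was measured at 12.6, 12.8 and 13.7 FPKM in WT and at 12.4, 12.1 and 12 FPKM in *Crlf2*-/- hearts (log2 fold change -0.09, 95% interval -0.30 to 0.12). *Smad9*, the rarest BMP SMAD gene, was measured at 0.448, 0.52 and 0.595 FPKM in WT and at 0.388, 0.27 and 0.423 FPKM in *Crlf2*-/- hearts. Its log2 fold change of -0.44 rests on 55, 61 and 70 WT fragments against 46, 34 and 51 of *Crlf2*-/- hearts, and its 95% interval ran from -0.96 to 0.08 (adjusted p = 0.829 from limma). In these genes the separation between groups was narrow beside the spread within them. *Smad1*, *Smad3* and *Smad4* overlapped, with log2 fold changes of -0.02, 0.004 and -0.06. *Smad3* nevertheless varied among WT hearts, from 6.16 FPKM in WT replicate 1 to 8.72 FPKM in WT replicate 3.

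The inhibitory SMAD genes, which the pathway itself induces and which shut it off, both had lower means in *Crlf2*-/- hearts with overlapping groups. *Smad6*, which acts mainly on BMP signals, was measured at 8.94, 9.73 and 8.23 FPKM in WT and at 6.45, 8.17 and 8.51 FPKM in *Crlf2*-/- hearts (log2 fold change -0.22, 95% interval -0.53 to 0.08). *Smad7* was measured at 6.75, 7.86 and 8.71 FPKM in WT and at 5.65, 7.13 and 8.13 FPKM in *Crlf2*-/- hearts (log2 fold change -0.16). For each, the lowest value of all 6 was in *Crlf2*-/- replicate 1, and without that library the log2 fold changes were -0.10 and -0.02.

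The corepressors SKI and SnoN, encoded by *Ski* and *Skil*, bind SMADs and block their activation of target genes. *Ski* was the most abundant of the 3 corepressor genes and among the most even of all members, with a coefficient of variation of 3.39% in WT and 4.82% in *Crlf2*-/- hearts. Its values ran from 45.4 to 48.3 FPKM in WT and from 42.5 to 46.8 FPKM in *Crlf2*-/- hearts. *Skil*, which TGF-beta induces, had values from 12.2 to 16.1 FPKM in WT and from 14.8 to 15.3 FPKM in *Crlf2*-/- hearts, the latter within the WT range. *Tgif1*, a corepressor of SMAD2, had a log2 fold change of 0.01.

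*Fstl1* was measured at 691, 803 and 763 FPKM in WT and at 868, 795 and 818 FPKM in *Crlf2*-/- hearts, which overlapped (log2 fold change 0.14, 95% interval -0.15 to 0.43). *Grem1*, a BMP antagonist, was near the limit of detection in 5 libraries and stood apart in 1. The WT libraries gave 8, 14 and 12 fragments and those of *Crlf2*-/- hearts 78, 17 and 4, so its log2 fold change of 0.59 turned to -0.16 without *Crlf2*-/- replicate 1. That library also held the highest sum of epicardial markers, 52.1 FPKM, where the other *Crlf2*-/- hearts had 29.7 and 31.6 FPKM.

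**Figure D3:**
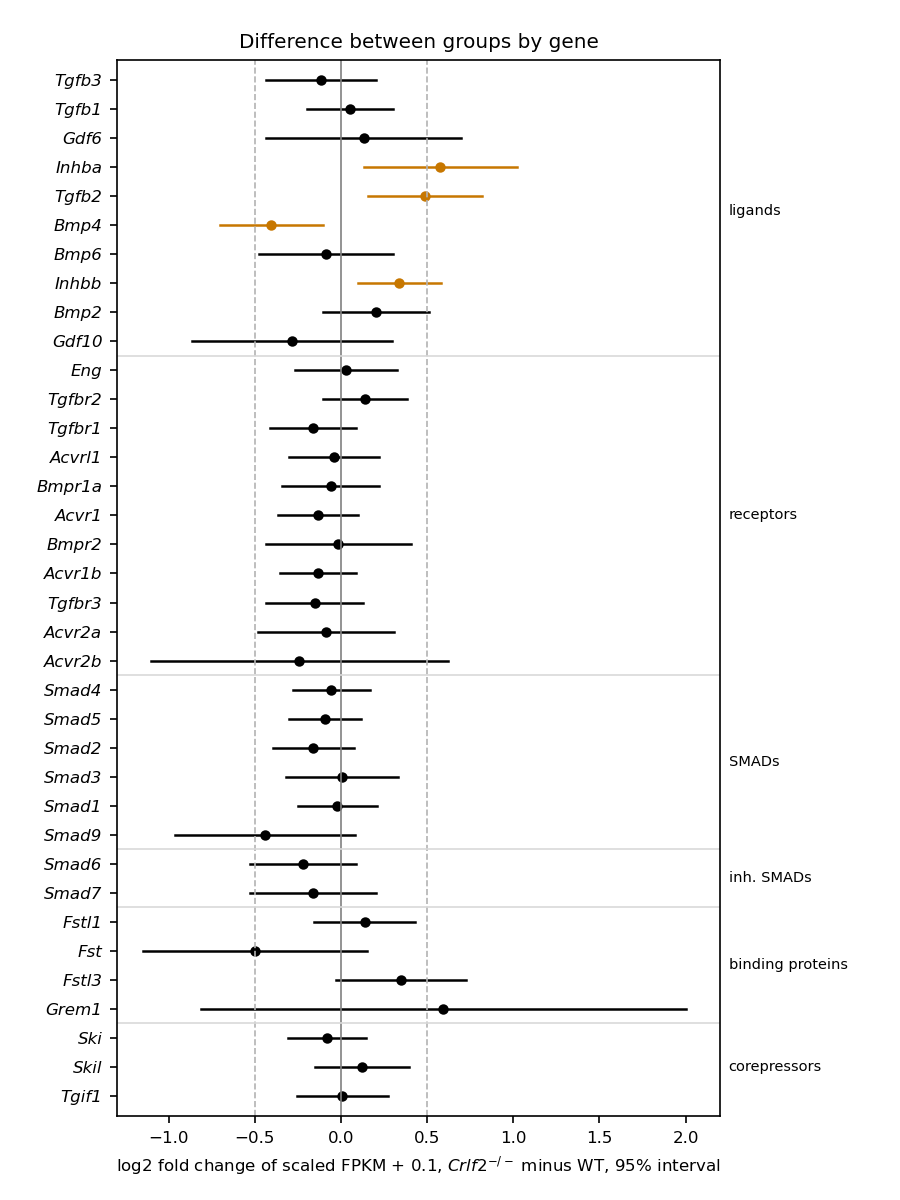
Log2 fold change (*Crlf2*-/- minus WT, on the log2(FPKM + 0.1) scale) of the 36 members tested, with 95% intervals from limma, grouped by role. Orange marks the 4 genes with an unadjusted p under 0.05, dashed lines stand at -0.5 and 0.5, and 22 intervals lie wholly between them.

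Over the 36 members tested, 14 had a higher and 22 a lower mean log level in *Crlf2*-/- hearts, and the median log2 fold change was -0.06 beside -0.004 over all genes tested. That median was 0.01 without WT replicate 3 and -0.12 without WT replicate 1. The groups did not overlap for 8 members, which is 22.2% of those tested where 11.7% of all genes tested did not overlap. 3 of them were higher and 5 lower in *Crlf2*-/- hearts, where 5.37% and 6.37% of all genes tested were apart in these directions. The 95% interval lay within a log2 fold change of 0.5 in either direction for 22 of the 36 members, so larger differences in these lie outside it. For the other 14, including *Inhba*, *Tgfb2*, *Fst* and *Smad9*, the interval reached beyond 0.5. Against the WT mean, the median over the members was -0.10, 0.004 and 0.08 in the WT hearts and -0.03, -0.07 and -0.02 in the *Crlf2*-/- hearts, so the *Crlf2*-/- hearts lay inside the range of the WT hearts.

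A list of 68 further genes of the pathway was examined, of which 48 were tested. 3 of these had an unadjusted p under 0.05 with a higher level in *Crlf2*-/- hearts and 0 with a lower level, 6.25% of those tested beside 6.58% of all genes tested. *Ltbp1*, which anchors latent TGF-beta in the matrix, was measured at 6.08, 8.53 and 9.14 FPKM in WT and at 11.9, 10.3 and 10.7 FPKM in *Crlf2*-/- hearts. Its groups did not overlap (log2 fold change 0.49, standard error 0.16, adjusted p = 0.546 from limma), and the value was 0.31 without WT replicate 1. *Bmper*, a secreted modulator of BMP signalling, was measured at 12.5, 14.3 and 10.9 FPKM in WT and at 17.4, 18.2 and 14.1 FPKM in *Crlf2*-/- hearts, and *Crlf2*-/- replicate 3 lay within the WT range (log2 fold change 0.39, adjusted p = 0.619 from limma). *Sost*, a secreted antagonist of the same structural family as gremlin that is best known for blocking Wnt, was low at 0.277 ± 0.0761 FPKM (SD, n = 3) for WT against 0.493 ± 0.0885 FPKM (SD, n = 3) in *Crlf2*-/- hearts (log2 fold change 0.66, adjusted p = 0.646 from limma).

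The most abundant of the further genes were the latency and activation genes. *Thbs1*, which encodes thrombospondin-1, an activator of latent TGF-beta, was measured at 222, 310 and 455 FPKM in WT and at 448, 476 and 437 FPKM in *Crlf2*-/- hearts. As for *Inhba*, WT replicate 1 was the lowest, WT replicate 3 the highest of the WT hearts and the *Crlf2*-/- hearts close together (log2 fold change 0.52, adjusted p = 0.792 from limma). Without WT replicate 1 the value was 0.27, and without WT replicate 3 it was 0.79. *Itgb5*, an integrin chain that takes part in the release of TGF-beta, was at 224 ± 9.78 FPKM (SD, n = 3) for WT against 219 ± 25.2 FPKM (SD, n = 3) in *Crlf2*-/- hearts. *Ltbp4* was at 146 ± 29.3 FPKM (SD, n = 3) for WT against 127 ± 22.1 FPKM (SD, n = 3) in *Crlf2*-/- hearts. Their log2 fold changes were -0.04 and -0.20. Among ligands outside the 38 genes, *Gdf15*, *Gdf11* and *Lefty1* were the highest, with log2 fold changes of 0.19, 0.06 and 0.46 and adjusted p-values from limma of at least 0.876. *Lefty1* was at 0.14 without WT replicate 3. *Gdf15*, a stress-induced ligand, was measured at 11.5 FPKM in *Crlf2*-/- replicate 3 where the other libraries lay between 5.09 and 7.29 FPKM. The co-receptor genes *Cd109*, *Hfe2* and *Rgmb* had log2 fold changes of 0.04, -0.15 and -0.10, and the intracellular genes *Pmepa1*, *Fkbp1a* and *Tab2* had ones of -0.08, -0.06 and 0.05.

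Genes that TGF-beta is known to induce were examined as a readout on the same libraries. Of 17 such genes tested, 15 had a higher and 2 a lower mean log level in *Crlf2*-/- hearts, with a median log2 fold change of 0.19. Over all genes tested, 49.08% had a higher mean log level. 1 of the 17, 5.88%, had an unadjusted p under 0.05, beside 6.58% of all genes tested, and 0 were called. That gene was *Acta2*, smooth muscle actin, a marker of myofibroblasts, at 519, 619 and 494 FPKM in WT and 687, 723 and 648 FPKM in *Crlf2*-/- hearts, without overlap (log2 fold change 0.34, standard error 0.14, adjusted p = 0.711 from limma). *Col1a1* did not overlap either, at 1961, 2433 and 2372 FPKM in WT and 2593, 2754 and 2644 FPKM in *Crlf2*-/- hearts (log2 fold change 0.25, adjusted p = 0.871 from limma, and 0.15 without WT replicate 1). The remaining gene without overlap was *Col5a1*, at 191, 243 and 215 FPKM in WT and 261, 267 and 262 FPKM in *Crlf2*-/- hearts. Thus 3 of the 17 were higher without overlap, where 5.37% of all genes tested were apart in that direction. *Col1a2* and *Col3a1*, the next collagens of this list, had log2 fold changes of 0.14 and 0.01. *Pmepa1*, a feedback target of TGF-beta, was lower in mean, at 77.5 ± 6.42 FPKM (SD, n = 3) for WT against 73.5 ± 7.05 FPKM (SD, n = 3) in *Crlf2*-/- hearts. Several genes of this list are also markers of fibroblasts, whose sums are given above. The summed level of the list ran from 8478 to 10320 FPKM in WT and from 10580 to 10750 FPKM in *Crlf2*-/- hearts. WT replicate 1 was the lowest. The largest parts of this sum were *Col1a1*, *Col3a1* and *Col1a2*, with WT means of 2256, 1845 and 1136 FPKM. These genes are in the fibroblast sum as well, and the summed level reflects them more than the rest of the list.

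Of 7 BMP target genes tested, 6 had a lower and 1 a higher mean log level in *Crlf2*-/- hearts, with a median log2 fold change of -0.14. The share of all genes tested with a higher mean log level was 49.08%. 1 of the 7, 14.3%, had an unadjusted limma p under 0.05, beside 6.58% of all genes tested, and 0 were called. That gene was *Id2*. *Id2*, an inhibitor of helix-loop-helix transcription factors, was measured at 35.6, 30.2 and 26.9 FPKM in WT and at 26.4, 23.2 and 23.3 FPKM in *Crlf2*-/- hearts. Its groups did not overlap (log2 fold change -0.34, standard error 0.13, adjusted p = 0.667 from limma). It was the only gene of this list without overlap, where 6.37% of all genes tested were lower without overlap. *Id3* and *Id1*, the most direct BMP targets of the family, were lowest in *Crlf2*-/- replicate 1, at 96.1 and 15.7 FPKM. In the other *Crlf2*-/- hearts *Id3* was at 150 and 148 FPKM and *Id1* at 21.9 and 21.8 FPKM, within or beside the WT ranges of 134 to 147 FPKM and 20.8 to 23.2 FPKM. Without *Crlf2*-/- replicate 1 the log2 fold changes of *Id3* and *Id1* were 0.07 and 0.002. The count of 6 lower genes therefore rests in part on that library. Over the 36 members tested, *Crlf2*-/- replicate 1 held the lowest level of the 6 hearts for 9 and the highest for 6, the latter including *Tgfb2* and *Inhba*.

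**Figure D4:**
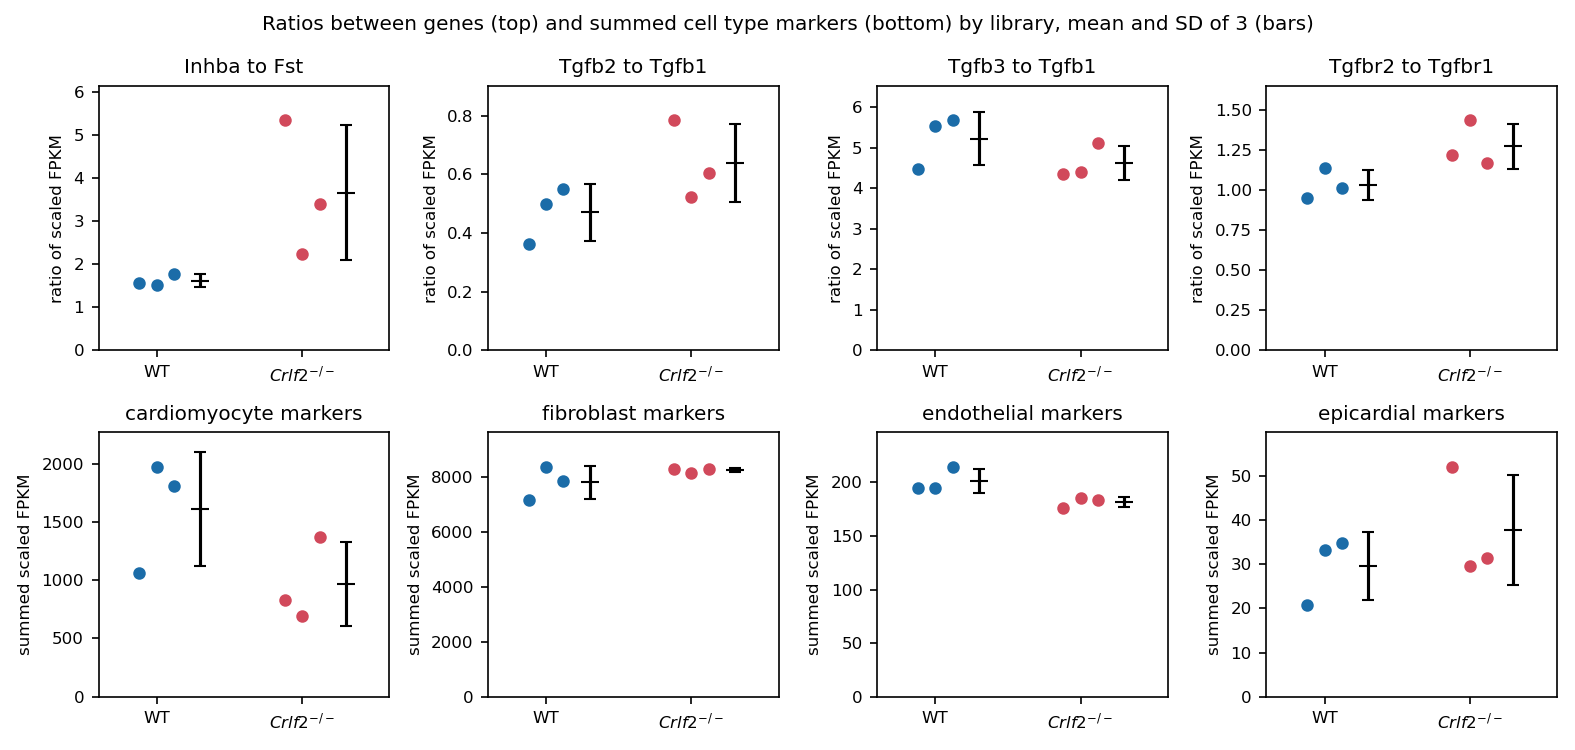
Top row, ratios of scaled FPKM between genes (*Inhba* to *Fst*, *Tgfb2* to *Tgfb1*, *Tgfb3* to *Tgfb1*, *Tgfbr2* to *Tgfbr1*) in each library. Bottom row, summed scaled FPKM of cardiomyocyte, fibroblast, endothelial and epicardial markers. Points are the 3 WT (blue) and 3 *Crlf2*-/- (red) hearts, bars are mean and SD, and axes start at 0. The *Inhba* to *Fst* ratio is 1.5 to 1.78 in WT and 2.23 to 5.33 in *Crlf2*-/- hearts, and the endothelial sum is lower in all *Crlf2*-/- hearts.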

How the data were processed

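The authors sequenced RNA of hearts, taken around and within the infarct, from 3 WT and 3 *Crlf2*-/- mice. The labelled extraction protocol names another tissue; the tissue label, the study and the markers say heart. After trimming, reads were aligned with Hisat2 2.0.5 (mm10 in the submitters' processing notes) and assigned to genes by featureCounts. The deposited values are FPKM, given per library together with the length of each gene. Whether counting used strand is not given in the sources used here. The gene positions of 37 of the 38 members matched GENCODE M21. *Smad2* differed, with a length of 3549 bases in the table and 8781 in M21, so its level against other genes depends on that length.

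FPKM multiplied by gene length, divided by the value of this product for 1 fragment in the library, gave whole numbers of fragments (within 0.01) for 100% of nonzero values. A trimmed mean of M values from these fragments gave scaling factors from 0.991 to 1.01. The filter asked for 10 fragments or more in 3 or more libraries and for a total of 15 or more. It kept 15520 genes, 36 members among them. limma 3.58.1 in R 4.3.3 (trend, robust) was run on log2(FPKM + 0.1), which understates the change of low genes, with Benjamini-Hochberg adjustment and the thresholds of the study's methods. Counting error limits the genes below 1 FPKM. All p-values measure the spread between these samples. The code was tested on simulated fragments with known changes. The table held 0 columns of other samples.

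All members were named, and of the further pathway and target genes those with an unadjusted p under 0.05 and the 3 highest of each list. *Col5a1*, *Lck*, *Cd6* and *Cd3e* were named besides and were not among the genes compared under the alternatives. The members and lists were chosen with earlier results of these data known. Alternatives were other pseudocounts, scalings and filters, limma's voom, the replicate number as a block and leaving out each library. Promoter sequences came from RefSeq (GRCm38.p6). Python 3.11.15, numpy 2.4.6, pandas 2.3.3 and matplotlib 3.10.9 were used otherwise.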

Additional observations from a re-analysis of the deposited data

How the results depend on the processing

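No member was called under any of the alternatives tried, where the smallest adjusted p of a member was 0.129 (*Inhba*, without WT replicate 3). *Tgfb2*, *Inhba*, *Inhbb* and *Bmp4* kept their direction in each, as did *Crlf2*. Over all genes, 2 were called; this became 6 with no filter on low genes, 1 with 10 fragments required in every library (922 genes at an unadjusted p under 0.05), 4 with the replicate number as a block, and from 1 to 14 when 1 library was omitted (14 without *Crlf2*-/- replicate 1, 8 without WT replicate 3 and 1 without WT replicate 1, WT replicate 2 or *Crlf2*-/- replicate 3). The number of members at an unadjusted p under 0.05 ranged from 2 (without WT replicate 1, *Tgfb2* and *Inhbb*) to 5 with each library left out, and was 6 with the replicate block, which added *Fst* and *Fstl3*. The share of all genes tested at that level was 4.34% to 7.45% with 1 library left out and 7.07% with the block. The number of members whose groups did not overlap ranged from 11 to 14 with 1 library fewer, since fewer libraries overlap less often. The share over all genes was not worked out for those fits, so these counts cannot be set against it. Between libraries of the same number, deviations from the group means had correlations of -0.0163, 0.115 and 0.12, and a shared number was therefore not read as pairing.

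Of 810 comparisons of a named gene with an alternative, 771 kept direction and side of the threshold and 39 reversed, all of them when 1 library was left out. The cause was not tested. The log2 fold change then ranged from -0.23 to 0.090 for *Acvr2a*, from -0.47 to 0.11 for *Acvr2b*, from -0.12 to 0.034 for *Acvrl1*, from -0.24 to 0.024 for *Bmp6*, from -0.128 to 0.030 for *Bmpr1a*, from -0.12 to 0.186 for *Bmpr2*, from -0.049 to 0.12 for *Eng*, from -0.144 to 0.36 for *Gdf6*, from -0.16 to 1.21 for *Grem1*, from -0.051 to 0.022 for *Smad1*, from -0.106 to 0.14 for *Smad3*, from -0.0056 to 0.13 for *Tgfb1*, from -0.20 to 6.3e-05 for *Tgfb3* and from -0.075 to 0.053 for *Tgif1*. Outside the members it ranged from -0.041 to 0.126 for *Cd109*, from -0.029 to 0.062 for *Col3a1*, from -0.16 to 0.24 for *Gdf11*, from -0.12 to 0.46 for *Gdf15*, from -0.47 to 0.32 for *Hfe2*, from -0.23 to 0.0019 for *Id1*, from -0.25 to 0.067 for *Id3*, from -0.098 to 0.060 for *Itgb5* and from -0.026 to 0.13 for *Tab2*. Without a change of direction, 1 library also moved *Bmp2* from 0.20 to 0.12 (without WT replicate 2), *Gdf10* from -0.28 to -0.09 (without *Crlf2*-/- replicate 3) and *Smad9* from -0.44 to -0.29 (without *Crlf2*-/- replicate 2). Depth limits *Bmp7*, *Bmp10*, *Grem1*, *Acvr2b* and *Smad9*, which had under 80 fragments in each library.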
